A study of Mus musculus with 17 samples.

Results

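The deposited row TCONS_00049214 lies on chromosome 6, positions 87387308 to 87387671, taken to be mm9, and is 1 of 23940 rows of noncoding transcripts measured in neonatal mouse heart ventricle. It was chosen by its ID because it had shown a fall after birth, so its change with age is given here as a description with no test. Long noncoding RNA was measured by strand-specific paired-end RNA sequencing of total RNA from male C57Bl/6 mice, in 17 libraries. The left ventricle (LV) and the right ventricle (RV) were sampled on postnatal day 0 (P0, with the ductus still open), day 3 (P3, labelled as the transition) and day 7 (P7, when most heart muscle cells terminally differentiate). Each of the 6 groups held 3 libraries from separate samples, except RV P7 with 2, and no group carried a treatment or a genetic change. The values are taken to be FPKM, that is, fragments per kilobase of a row's length and per unit of sequencing depth.

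The row is at the end of the Bmp10 locus by its spacing to other rows. Bmp10 encodes bone morphogenetic protein 10, a secreted ligand that signals through the receptor ALK1 with a type II receptor such as BMPR2. In the embryo it is made by the trabecular muscle of the ventricles, the muscle ridges that line the chamber, where it keeps heart muscle cells dividing. In the adult heart its expression is known from the right atrium. These statements are background and were not measured here, because the tables pair no row with a gene symbol and hold no coding genes by name. For the same reason muscle, atrial and other cell types could not be checked against their markers, and their part in the results was not tested.

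No annotation of the files' build was at hand, and no position was converted. The locus was checked by spans and distances alone. Within 1 Mb, 14 rows had a span that exactly 1 GENCODE gene of the chromosome shares. Of these, 10 also had the same spacing to each other as the genes and 4 did not, and the nearest of the 10 on each side serve as flanking features, so their equal distance is part of how they were chosen. The GENCODE annotation of GRCm38 has a gene of exactly the same span for the row NONMMUT057819 (87202244 to 87205602, span 3359 bases), which is Gm44417. It likewise has one for NONMMUT057832 (87622376 to 87631018, span 8643 bases), which is E230015B07Rik. The distance between these flanking features was 416774 bases in the files and 416774 bases in GENCODE, and the stretch holds 7 protein-coding genes, Gkn1, Gkn2, Gkn3, Bmp10, Arhgap25, Prokr1 and Aplf. In the files TCONS_00049214 began 181706 and ended 182069 bases past the end of the lower flanking row. In GENCODE the Bmp10 transcript, of 2 exons on the plus strand, also ended 182069 bases past the end of Gm44417. Its stop codon ended 178884 bases past that point. The row therefore began 2822 bases beyond the stop codon and took up the last 364 bases of the 3185 that follow it, inside the 3′ UTR of the terminal exon. The RefSeq gene model of GRCm38 ends 20 bases past the stop codon, so the row starts 2802 bases beyond it.

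The last 364 bases of the GENCODE Bmp10 transcript hold the letters AATAAA, the common poly(A) signal, 2 times, the later match starting 24 bases from the transcript's end. Only the sense strand was searched. The letters occur in the last 364 bases of 49.3% of GENCODE coding transcripts of at least that length, and in the last 40 bases of 40.2%. The files give no strand, so fragments of the Bmp10 messenger RNA and of a separate noncoding RNA at its end cannot be told apart in this row.

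At birth the row was among the most abundant of the tables, and its means in the ventricles were close. In LV P0 it measured 36.1, 17.6 and 28.5 FPKM in replicates 1, 2 and 3. In RV P0 it measured 27.6, 17.2 and 36.4 FPKM. The ranges of the ventricles overlapped almost fully, and replicate 2 was the lowest library in both. The means were 27.4 ± 9.30 in LV and 27.1 ± 9.60 FPKM in RV (SD, n = 3 each). This placed the row 48th of 23940 by mean level in both ventricles.

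The depth behind these values can be read from the deposited values. What 1 fragment is worth in a library was taken from the commonest low product of value and span over all rows. Times the span of 364 bases, the value of TCONS_00049214 in each library fell within 0.001 of a whole multiple of 0.5 of that worth. Libraries listed at 0 meet this trivially. The values correspond to 269.5, 97.5 and 191.0 fragments in LV P0 and to 179.0, 104.5 and 240.5 in RV P0. Values of 0.5 of a fragment are a feature of the deposited tables. The 95% Poisson intervals of the highest and lowest LV P0 libraries were 31.9 to 40.6 and 14.3 to 21.4 FPKM, so the spread between replicates was wider than counting error, which is all that these intervals cover. Over the libraries, 1 fragment was worth 0.134 to 0.199 FPKM of this row, at depths of 13.8 to 20.5 M fragments.

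By P3 most of the signal was gone, and more of it was left in the right ventricle than in the left. In LV P3 the row measured 0.878, 1.01 and 0.537 FPKM in replicates 1, 2 and 3, from 6.0, 7.0 and 3.5 fragments. In RV P3 it measured 2.26, 3.59 and 3.71 FPKM, from 16.0, 18.0 and 22.5 fragments. Every RV library was above every LV library, and every P3 library was below every P0 library. The LV mean of 0.810 ± 0.246 FPKM (SD, n = 3) was 2.96% of its P0 mean, with single libraries at 1.96% to 3.71%. The RV mean of 3.19 ± 0.807 FPKM (SD, n = 3) was 11.8% of its P0 mean, with single libraries at 8.34% to 13.7%. Each share divides a P3 library by the P0 mean of its ventricle, and these means were close. That the ranges of the shares did not overlap therefore restates the separation of the P3 libraries. The ranges leave out the spread at P0. Of all rows tested, 5.22% had every RV P3 library above every LV P3 library.

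By P7 the row was at or next to 0. It was listed at 0 in all 3 LV libraries and in RV replicate 1, and RV replicate 2 held 0.147 FPKM, which is 1 fragment. At these depths a count of 0 allows up to 3 fragments, or 0.442 to 0.496 FPKM in the P7 libraries. Against that limit per library, the row was at least 55.2-fold lower in LV at P7 than the P0 mean. In RV, 524 fragments in 3 libraries at P0 stood against 1 fragment in 2 libraries at P7, a ratio of 366 per unit of depth with a 95% counting interval of 65.3 to 14471. This interval pools the libraries of each age and covers counting error only. In tissue RNA, fewer cells that make a transcript and less of it per cell cannot be told apart.

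**Figure D1:**
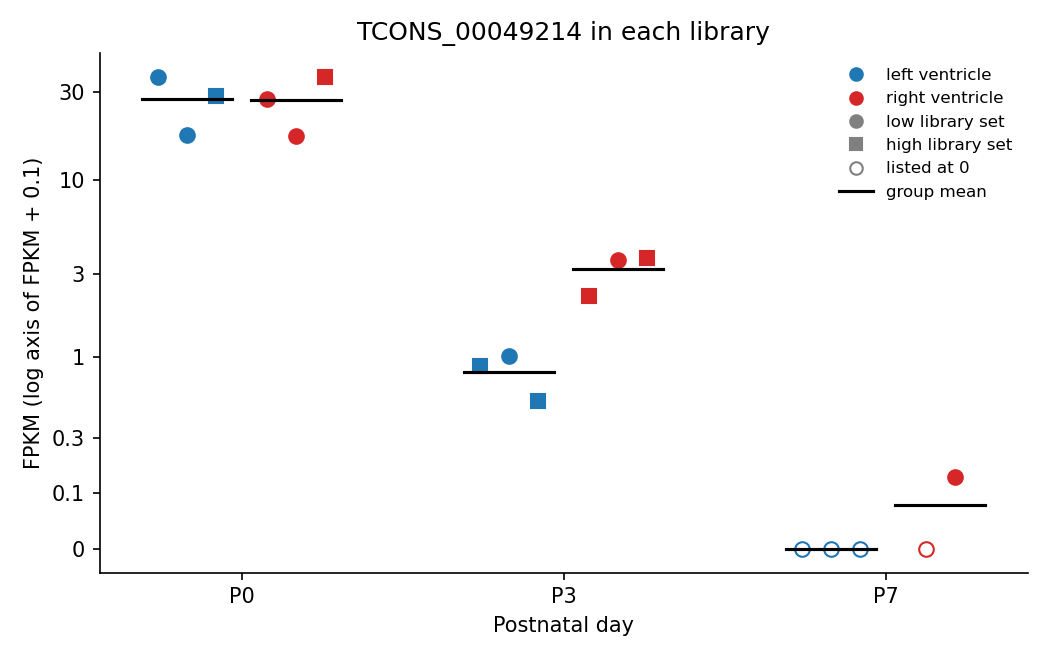
FPKM of TCONS_00049214 in each of the 17 libraries by postnatal day, on a log axis of FPKM + 0.1. Circles are libraries of the low library set and squares those of the high set, open circles are libraries listed at 0 and bars are group means. The P0 libraries lie between 17.2 and 36.4 FPKM in both ventricles, and the P3 libraries separate, with LV at or below 1.01 and RV at or above 2.26 FPKM.

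The row was chosen for its fall after birth, not for a difference between ventricles. The P3 values may have entered that choice, so the ventricle contrast at P3 is not fully separate from it. With that limit, the difference between ventricles at P3 was tested in the fit over all 11079 rows that reached 0.1 FPKM in 2 or more libraries. RV was 3.93-fold above LV in mean FPKM, and the lowest RV library was 2.22-fold above the highest LV library. In fragments, 56.5 in RV stood against 16.5 in LV, a ratio of 3.82 with a 95% counting interval of 2.17 to 7.06. That interval pools the libraries of each ventricle and leaves out the spread between them. On the scale of log2(FPKM + 0.1) the difference was 1.86 ± 0.35 (RV minus LV, SE; 95% interval 1.13 to 2.59). Its unadjusted p of 3.68e-05 in limma was the third smallest of the 11079 rows, and after Benjamini-Hochberg adjustment it was 0.107, above the threshold of 0.05. An exact two-sided permutation test of 3 against 3 libraries gave p = 0.1, the smallest it can give. In all, limma called 1 row (0.00903%) higher in RV at P3, and 5.22% of the rows tested had every RV P3 library above every LV P3 library.

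The size of the P3 difference changed little from library to library, while the call depended on them. Leaving out 1 library at a time gave log2 differences of 1.62 to 2.08, where only the P3 libraries could move the value. With a pseudocount of 1 in place of 0.1 the difference was 1.20. The adjusted p of limma was 0.0393 without RV P7 replicate 1 and 0.0372 without RV P7 replicate 2, libraries that enter only the shared estimate of the spread. Over all alternatives of the fit, it ranged from 0.0356 to 0.756 and was under 0.05 in 3 of 27. The third was a fit with each age and replicate number as a block (0.0356). That fit compares same-numbered LV and RV libraries of an age as pairs. RV P3 replicate 2 had the lowest depth of the series, 13.8 M fragments. Without it the RV mean was 3.68-fold above LV. The lowest RV P3 library was replicate 1, so its 2.22-fold distance from the highest LV library does not involve replicate 2.

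At P0 the ventricles were not told apart by the test. There the log2 difference of the row was -0.02 ± 0.35 (RV minus LV, SE; limma adjusted p = 1), with a 95% interval of -0.75 to 0.71. At P7 both ventricles were at or under 3 fragments, so no fold is given. Over the 3 ages the log2 difference was 0.83 ± 0.21 (RV minus LV, SE; limma adjusted p = 0.321). This value takes in the P7 libraries at 0, and it was 1.31 with a pseudocount of 0.01 and 0.43 with one of 1. An exact two-sided permutation of the ventricle labels within age gave p = 0.023 for the ages together, and 0.092 when adjusted over the 4 ventricle comparisons of the row. The mean in RV exceeded that in LV at P3 and, by 1 fragment, at P7, and was 0.989 times that in LV at P0.

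Whether the fall from P0 to P3 itself differed between ventricles was tested as an interaction. This contrast uses the P0 and P3 values, so it is not fully separate from the choice of the row. The fall was smaller in RV by 1.88 ± 0.49 on the log2 scale (RV change minus LV change, SE; unadjusted p = 0.00114 in limma). After adjustment p was 0.797, and limma called 0 of 11079 rows for this difference, with 506 at an unadjusted p under 0.05.

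The ventricle difference of the row at P3 stood beside little difference among other rows that fell after birth. Besides TCONS_00049214, 280 rows were called lower at P7 than at P0 in both ventricles, where limma called 8.64% of rows lower in LV and 3.72% in RV. Their median log2 difference at P3 was -0.02 (RV minus LV), and 134 of them (47.9%) were higher in RV. Over the other 11078 rows tested the median was 0.00, and 5559 (50.2%) were higher in RV. Only 5 of these 11078 rows had a difference larger than the 1.86 of TCONS_00049214. None of the 280 did, which says little about falling rows when so few rows did at all. The row thus lay at the upper end of the tested rows for this difference, while the falling rows as a list were centred near 0, as were the tested rows.

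A split of the libraries that runs across the groups was seen on the mitochondrial chromosome. The row NONMMUT071594 there held 132 to 247 FPKM in 6 libraries, the high set, and 7.93 to 25.8 in the other 11, the low set. The high set was LV P0 replicate 3, LV P3 replicates 1 and 3 and the same numbers in RV, so no P7 library belonged to it. For TCONS_00049214 at P3, RV was 3.54-fold above LV in the low set, with 1 library each, and 4.22-fold in the high set, with 2 each. At P0 the ratio of RV to LV was 0.835 in the low set, with 2 libraries each, and 1.28 in the high set, with 1 each. The fall from P0 to P7 within the low set was -7.98 in LV and -7.12 in RV on the log2 scale, against -8.04 and -7.37 over all libraries. The fall from P0 to P3 was -4.50 and -5.18 in the low and the high set of LV, and -2.57 and -3.61 in RV.

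**Figure D2:**
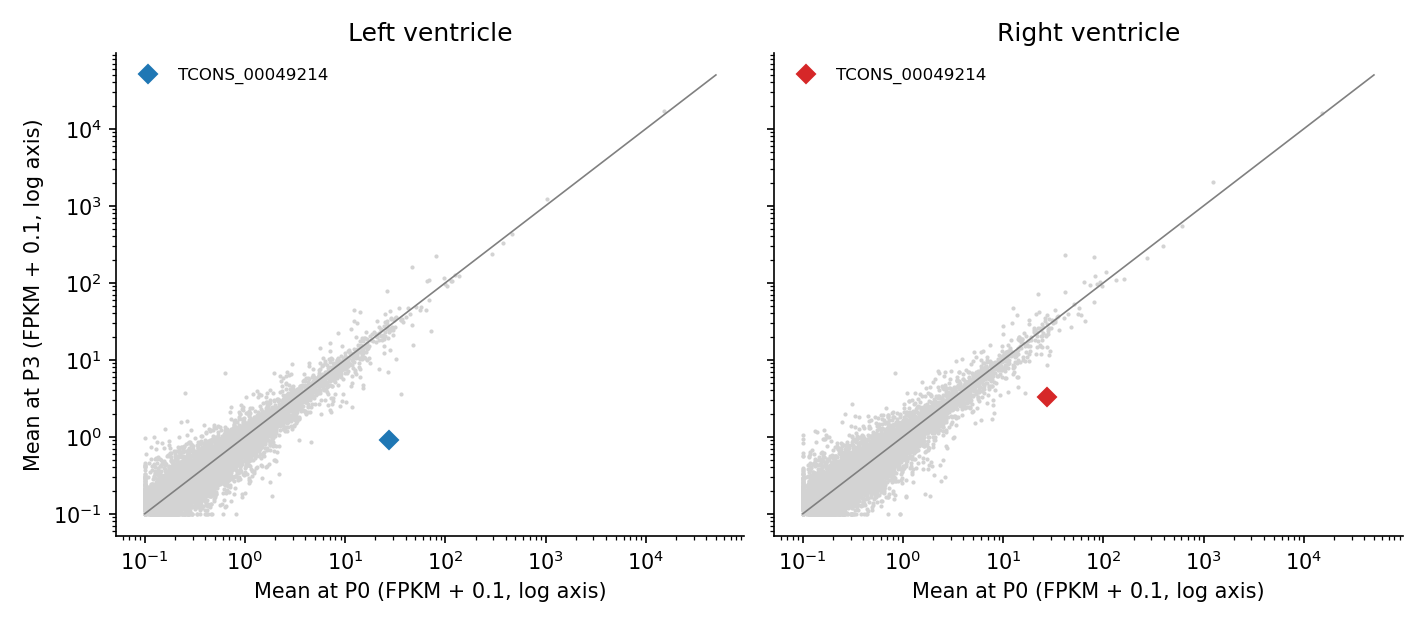
Mean FPKM + 0.1 at P0 and at P3 for all 11079 rows tested, on log axes, in the left and the right ventricle, with TCONS_00049214 as a diamond and the line of equal level. The row lies far below the line in both panels, at 0.810 FPKM in LV and 3.19 FPKM in RV at P3 against 27.4 and 27.1 at P0.

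Rows that were equally abundant at birth mostly stayed so. In LV, 106 other rows had a P0 mean within a factor of 2 of that of TCONS_00049214. A median of 91.6% of their P0 level was left at P3 and 80.0% at P7, and 31 of them were higher at P7. Among them 1 was below 10% of its P0 level at P3, 2 were at P7, and none was listed at 0 in all P7 libraries. In RV, 101 rows met the same limit, with medians of 93.8% at P3 and 78.3% at P7. There 1 was below 10% at P3 and 2 at P7. TCONS_00049214 itself kept 11.8% in RV at P3, which is above that limit, and 1 of the 101 rows fell at least as far by P3 on the log2 scale. The fall of TCONS_00049214 from P0 to P7 ranked first of 11079 rows in both ventricles, and from P0 to P3 it ranked first in LV and 7th in RV. From P0 to P7 its log2 change was -8.04 in LV, against -6.84 for the next row. In RV the lead was slight, at -7.37 against -7.27, and its own value ran from -8.02 to -6.71 with 1 library left out. Because P7 is at or near 0, these sizes depend on the pseudocount. These ranks describe what the row was chosen for. Over all tested rows the median log2 change from P0 to P7 was itself below 0, at -0.32 in LV and -0.27 in RV.

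The loss could be set against few neighbours. No other row overlapped a window from 87.3 kb below to 62.3 kb above it on chromosome 6. The nearest row at lower positions, NONMMUT057822 (87282748 to 87284854), lay 102.5 kb away and measured 0 to 0.0860 FPKM over the 17 libraries. The nearest at higher positions, NONMMUT057832, lay 234.7 kb away and measured 0 to 0.0223 FPKM. Neither passed the filter on low values, so TCONS_00049214 was the only row in the stretch of 337.5 kb between them.

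Within 1 Mb on either side the tables hold 41 other rows, of which 22 passed the filter. Of these 22, limma called 1 lower and 2 higher at P7 than at P0 in LV, against 8.64% lower and 2.6% higher among all rows tested. In RV it called 0 lower and 2 higher, against 3.72% and 1.83%. An unadjusted p under 0.05 in either direction was found for 5 of the 22 rows in LV, against 2975 of all 11079, and for 4 in RV, against 2162 of 11079. The median log2 change of the 22 rows was -0.30 in LV, against -0.32 over all rows tested, and -0.00 in RV, against -0.27. The following rows were named after their values were seen. The 2 higher rows overlap each other about 921 kb from TCONS_00049214, and the stronger, NONMMUT057773 (86463889 to 86466267), rose from 11.3 ± 2.88 FPKM at P0 to 23.5 ± 3.79 at P7 in LV (SD over 3 libraries each; adjusted p = 0.00153 in limma). In RV its level at P0 was 9.94 ± 2.28 FPKM (SD, n = 3) and its level at P7 was 22.8 ± 5.19 (SD over 2 libraries; adjusted p = 0.00238 in limma). The lower row, TCONS_00050924 (88137628 to 88138373), went from 0.547 ± 0.287 FPKM at P0 to 0.0760 ± 0.0738 at P7 in LV (SD over 3 libraries each; adjusted p = 0.0417 in limma). This call was lost without LV P0 replicate 2 or 3 and without LV P7 replicate 1 or 2, where the count was 0. The values of TCONS_00050924 were low, at 0 to 0.147 FPKM in LV P7 and at most 0.835 in any library. It was not called in RV, with 0.249 ± 0.277 FPKM at P0 (SD, n = 3) and 0.275 ± 0.0836 at P7 (SD over 2 libraries). The count of higher rows was 1 without LV P0 replicate 1 or 3, without LV P7 replicate 1 or 3, without RV P0 replicate 1 or without RV P7 replicate 1, each in its own ventricle, and 0 in RV without RV P7 replicate 2.

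On chromosome 6 as a whole, 615 other rows were tested. Limma called 46 of them (7.48%) lower and 19 (3.09%) higher in LV at P7, and their median log2 change was -0.27. In RV it called 18 (2.93%) lower and 15 (2.44%) higher, with a median of -0.20.

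**Figure D3:**
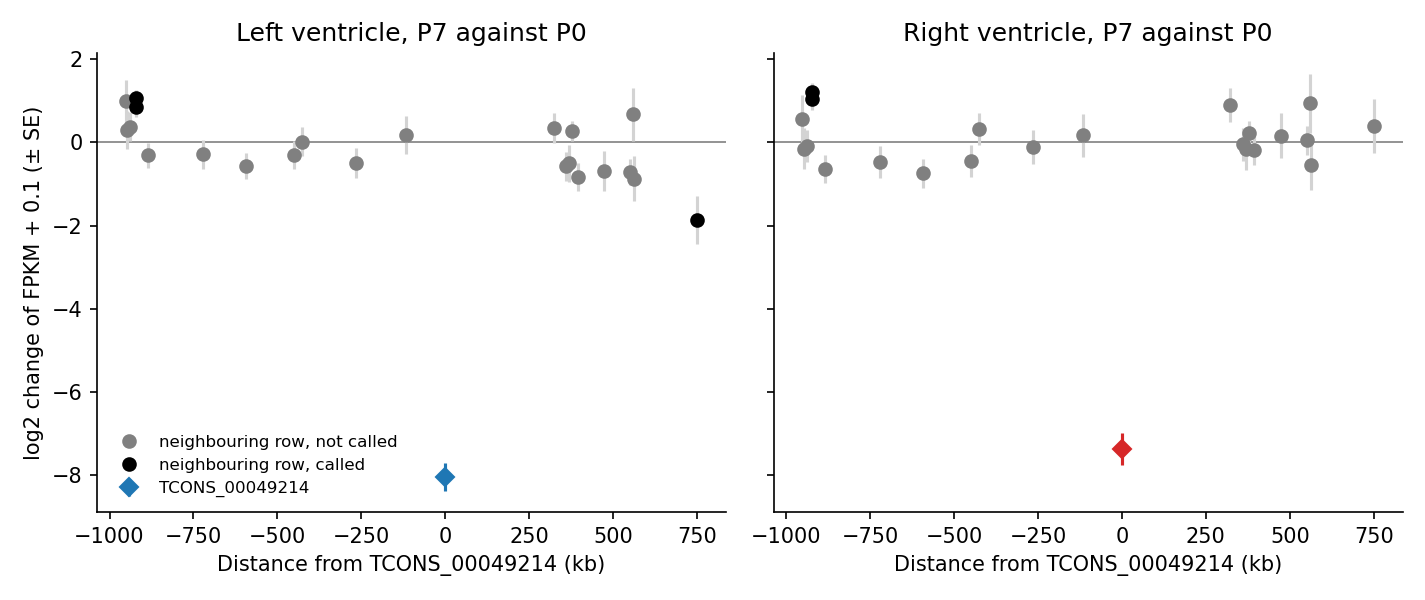
Log2 change (± SE) from P0 to P7 of TCONS_00049214 (diamond) and of the 22 tested rows within 1 Mb (circles, black where called), by distance from it in kb, in the left and the right ventricle. The diamond lies at -8.04 in LV and -7.37 in RV, and the neighbouring rows lie between -1.87 and 1.20.

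The rows whose pattern was most like that of TCONS_00049214 fell less far. Likeness was Pearson's r of log2(FPKM + 0.1) over the 17 libraries, among 5538 other rows with a mean above the median. The r values are descriptions with no p, and all rows share the libraries, their depth and the median shift with age. The median r was 0.32, and 55 rows reached 0.9. The highest was TCONS_00049280 on chromosome 6 (90427225 to 90429495; r = 0.98), which went from 1.19 ± 0.0992 over 0.460 ± 0.0563 to 0.248 ± 0.0176 FPKM in LV (SD, n = 3 each). Next was NONMMUT064276 on chromosome 7 (149761434 to 149764051; r = 0.98), which went from 71.8 ± 21.1 over 23.4 ± 1.37 to 10.7 ± 0.287 FPKM in LV (SD, n = 3 each). The other three were NONMMUT071698 on chromosome X (6730937 to 6732267; r = 0.97), NONMMUT038009, which has no position (r = 0.96), and NONMMUT020707 on chromosome 14 (50299848 to 50301899; r = 0.96).

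All 5 kept a larger share of their P0 level than TCONS_00049214 at both later ages. This follows largely from the choice of the row, whose fall from P0 to P7 ranked first of 11079 rows in both ventricles. It is a description and not a result about the 5 rows. In LV 31.1% to 41.8% was left at P3 and 14.9% to 20.8% at P7. In RV 42.1% to 66.4% was left at P3 and 19.9% to 26.5% at P7. Their RV means at P3 were 1.09 to 1.54 times their LV means, against 3.93 for TCONS_00049214. Likeness over the libraries had already favoured rows that were higher in RV at P3, so this order is not separate evidence.

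**Figure D4:**
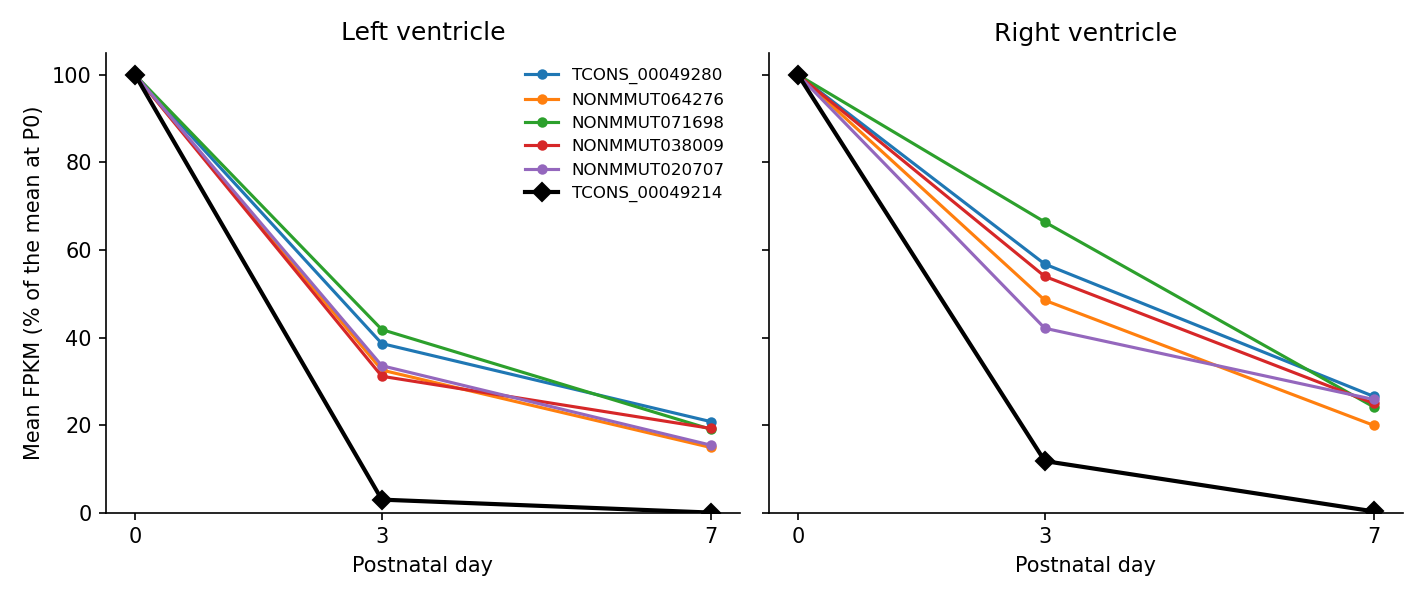
Mean FPKM as a percentage of the P0 mean, by postnatal day, for TCONS_00049214 (black) and the 5 rows with the most similar pattern, in the left and the right ventricle. TCONS_00049214 is at 2.96% in LV and 11.8% in RV at P3, and the others are at 31.1% to 66.4%.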

How the data were processed

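Each library has its own table of row IDs, positions and values, as the authors made it. The unit is not named; that the deposited values are FPKM was inferred because, times the row's span, they fall on multiples of 0.5 of 1 step per library. The submitters' processing notes name STAR 2.4.0j and mm10, but the positions do not match mm10 and were taken as mm9. The counting tool is not given in the sources used here.

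Fragments were recovered as value times span divided by the library's step. Counting intervals of 1 library are exact Poisson at 95%. Those of ratios are 95% beta intervals of the share of pooled fragments, scaled by depth. Rows that reached 0.1 FPKM in 2 or more libraries were fitted on log2(FPKM + 0.1) with limma 3.58.1 in R 4.3.3 (6 group means, variance trend, robust moderation, Benjamini-Hochberg adjustment over all rows fitted, threshold 0.05), and the procedure was tested on simulated data. Permutation tests used Python 3.11.15 and SciPy 1.17.1. The rows named are TCONS_00049214, rows in its window, the nearest row on each side and the 5 with the highest Pearson r. The member and the rules were chosen with earlier results of these data known. Other pseudocounts, scaling, filter, variance trend, samples, library sets and a replicate block were tried. No sequence is printed.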

Additional observations from a re-analysis of the deposited data

How the results depend on the processing

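The log2 difference of TCONS_00049214 between RV and LV at P3 was 1.20 to 2.08 over the 27 alternatives of the fit, and 1.62 to 2.08 with 1 library left out. Every RV P3 library was above every LV P3 library, so leaving out a library or changing the pseudocount could not turn its sign. Fits that left the P3 values as they were, such as those without a P0 or P7 library, returned the same 1.86. The kept direction is therefore not a test of the difference. Same-numbered LV and RV libraries deviated together only weakly (r of 0.05 to 0.17, over 0.1 in 3 of 8 pairs). All 8 nevertheless correlated best with their own number, so the numbers carry some shared structure. No label ties a number to a shared animal, and the numbers were not taken as pairs in the main fit. The main fit and the permutations therefore do not allow for a link between same-numbered libraries. The replicate block does take same-numbered LV and RV libraries of an age as pairs for the ventricle contrasts. With it the P3 difference of 1.86 passed the threshold (limma adjusted p = 0.0356), and the P0 to P3 difference in change did not (limma adjusted p = 0.386). The P0 difference turned sign with median scaling (0.0057), in the high library set (0.35), and over left-out libraries (-0.31 to 0.27). The P3 to P7 difference in change was -1.21 ± 0.52 (RV minus LV, SE; limma adjusted p = 1, unadjusted 0.0319) and turned to 0.0104 with a pseudocount of 0.01. Because P7 is at or near 0, the log2 changes with age depend on the pseudocount. With 0.01, P7 against P3 was -6.31 in LV and -6.30 in RV, and P7 against P0 was -11.36 and -9.35. With 1, P7 against P3 was -0.85 and -1.95, P7 against P0 -4.77 and -4.65, and LV P3 against P0 -3.92. LV P7 against P3 was -3.48 in the low library set, and RV P3 against P0 was -3.61 in the high set. Within 1 Mb, the rows called higher numbered 1 in each ventricle with no filter, no variance trend, only the groups compared or the low set, and 1 to 2 in LV and 0 to 2 in RV with 1 library left out. The rows called lower in LV numbered 0 with a pseudocount of 0.01, median scaling, no filter, the low set or the set as a term, and 0 to 1 with 1 library left out. The cause was not tested. The alternatives planned for rows in the window gave no value, since it holds no other row; those within 1 Mb and by library set were chosen after seeing the data.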
